A study of Mus musculus with 12 samples.

Results

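The 41 genes described here are genes of the lymphocytes of the small intestine, and the pan-leukocyte ones among them are shared with other leukocytes. They were taken as every probe set whose single gene symbol is a T cell, B cell, cytotoxic lymphocyte or pan-leukocyte gene of a written list. Of the 41 genes, 39 had a probe set on the array (56 probe sets in all), and 20 were expressed, that is, at least 1 probe set had a mean intensity over 20 in at least 1 of the 4 groups (23 probe sets). The whole array held 12394 singly named genes, and 6107 of them were expressed by the same rule. Lck and Il2rg had no such probe set and were not analysed here, and the values below are array intensities on the linear scale, made by GCRMA, which corrects for background, normalizes arrays and summarises the probes of each probe set.

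RNA of the complete small intestine had been hybridized to Affymetrix mouse GeneChip arrays, with 3 biological replicates in each of 4 groups of male mice aged 14 weeks. Wild-type fed and PPARα-null fed mice had free access to feed, and the wild-type fasted and PPARα-null fasted mice went without feed for 24 h. PPARα is a nuclear receptor, activated by fatty acids, that controls much of the response to fasting, and the null mice lack it in every cell from conception. Wild-type mice were 129S1/SvImJ and null mice 129S4/SvJae, while the labels of the fed arrays give 129Sv for both, so that genotype and substrain cannot be told apart. P-values weigh each difference against the spread between the 3 arrays within groups, estimated from all 4 groups together.

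The mucosa of the small intestine holds one of the largest lymphocyte populations of the body. Intraepithelial lymphocytes, mostly CD8 T cells held in the epithelium by the integrin αE (Itgae) and rich in granzymes, sit between the enterocytes, while B cells gather in Peyer's patches and isolated follicles, and plasma cells of the lamina propria secrete dimeric IgA joined by the J chain (Jchain). In whole intestine, where epithelium dominates, fewer lymphocytes and less RNA of a gene per lymphocyte give the same lower intensity and cannot be told apart.

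Promoter sequence, taken from RefSeq (GRCm38.p6) as the 250 bases before the gene start, was at hand for 26 of the 41 genes and 13 of the 20 expressed ones. It is shown for the 2 granzymes and for a pan-leukocyte and a B cell gene, because these genes carry much of what follows and hold the binding letters of lymphocyte transcription factors. Capitals mark AACCACA (Runx) in Gzma and Gzmb and AGGAAGT (Ets) in Ptprc and Cd79a, or the reverse complement of these letters, since both strands were searched. Neither motif contains the other.
Gzma, chr13:113100982-113101231, minus strand: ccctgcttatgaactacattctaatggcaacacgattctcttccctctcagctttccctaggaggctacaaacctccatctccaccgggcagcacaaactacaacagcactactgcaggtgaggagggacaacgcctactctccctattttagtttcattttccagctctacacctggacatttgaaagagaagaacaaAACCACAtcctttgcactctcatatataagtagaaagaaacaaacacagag
Gzmb, chr14:56262335-56262584, minus strand: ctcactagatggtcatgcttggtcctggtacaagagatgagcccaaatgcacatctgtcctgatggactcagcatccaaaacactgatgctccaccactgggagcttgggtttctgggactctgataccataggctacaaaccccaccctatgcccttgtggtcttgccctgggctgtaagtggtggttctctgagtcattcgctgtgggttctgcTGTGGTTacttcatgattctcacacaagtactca
Ptprc, chr1:138175306-138175555, minus strand: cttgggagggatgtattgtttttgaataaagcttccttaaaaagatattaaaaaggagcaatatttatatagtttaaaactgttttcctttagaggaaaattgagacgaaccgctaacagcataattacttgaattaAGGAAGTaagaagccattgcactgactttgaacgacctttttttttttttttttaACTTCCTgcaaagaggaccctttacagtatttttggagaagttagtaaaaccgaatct
Cd79a, chr7:24897247-24897496, plus strand: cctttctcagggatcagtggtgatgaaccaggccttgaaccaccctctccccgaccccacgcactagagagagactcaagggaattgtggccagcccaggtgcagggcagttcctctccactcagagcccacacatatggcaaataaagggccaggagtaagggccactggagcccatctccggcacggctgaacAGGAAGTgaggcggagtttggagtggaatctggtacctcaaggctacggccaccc
The nearest base of the Runx letters lay 45 bases before the start of Gzma and 28 bases before that of Gzmb. Among the 13 expressed genes with a promoter these were the 2 with the Runx motif, which stood in 4.4% of all 32851 promoters. Of the same 13 genes, Cd3d, Cd79a and Ptprc held the Ets letters, against 7.69% of all promoters. The E-box CACCTG was in Cd3d, Cd3g, Gzma and Cd79a of these 13, against 17.2%. Of all 26 genes with a promoter, expressed or not, 4 held the Runx letters, 10 the Ets letters and 12 the E-box. No promoter of the 26 genes held the octamer ATGCAAAT, which 1.6% of all promoters held, or the direct repeat of AGGTCA with 1 base between the copies, the element PPARα binds, which 11 of all promoters (0.0335%) held. A gene counted as a match if any of its promoters held the letters, whereas the shares are over single promoters, so the measures differ. For Ptprc another promoter with the Ets letters is not shown. These matches describe letters only.

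The arrays differed in ways that touch the results. Values of the fed arrays followed one distribution and those of the fasted arrays another, with medians of all probe sets of 12.65 to 12.81 and 11.1 to 11.3, respectively. Expressed probe sets were lower by 0.30 on the log2 scale upon fasting at the median, averaged over both genotypes (−0.27 in wild-type and −0.32 in null mice), and this single constant was removed from each change upon fasting. Array set and feeding state cannot be told apart. Ppara itself had intensities of 29.9 ± 8.75 (SD, n = 3) in wild-type fed, 45.9 ± 14.1 in wild-type fasted, 7.23 ± 0.346 in null fed and 11.9 ± 1.16 in null fasted mice, as the genotypes in the titles state. Wild-type fed replicate 2 had 1616 on an 18S ribosomal RNA control that read 10.4 to 33.7 on the other arrays, and null fasted replicate 2 lay farthest from its group, with a root mean square deviation of 0.300 in log2 against 0.155 to 0.233 elsewhere. Ratios of 3′ to 5′ signal of Gapdh, a sign of RNA quality, were 1.10 to 1.18 in wild-type fed, 1.22 to 1.25 in wild-type fasted, 1.144 to 1.151 in null fed and 1.18 to 1.26 in null fasted mice. They were higher on all fasted arrays than on the fed arrays of the same genotype, and their part in the changes upon fasting was not tested. Enterocyte transcripts were abundant on every array, with Vil1 at 3974 to 5758 and Fabp2 at 9034 to 11319.

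In fed wild-type mice, all 20 expressed genes had a mean over 20, against 18 in wild-type fasted, 19 in null fed and 15 in null fasted mice. The 15 genes that stayed over 20 in every group were Cd3g, Lat, Itgae, Gzma, Ccl5, Cd79a, Cd79b, Pou2af1, Jchain, Ptprc, Coro1a, Cd52, Cd53, Rac2 and Laptm5. Cd3d passed in wild-type fed mice alone, so that it could only be tested because of that group, and the same holds for the second probe sets of Cd8a and Ms4a1. Among the T cell genes Cd3e, Cd247, Cd2, Cd5, Cd8b1, Cd4, Zap70 and Thy1 stayed under 20 in all groups, as did the intraepithelial homing and killer genes Ccr9, Klrd1 and Xcl1, the cytokine and chemokine genes Il2rb, Il7r, Cxcr4 and Ltb, the B cell genes Cd22 and Blk, and Ptprcap and Cd37. The highest group mean of these 19 genes ranged from 5.35 to 15.2. The T cell side of the description thus rests on few probe sets of low intensity.

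**Figure D1:**
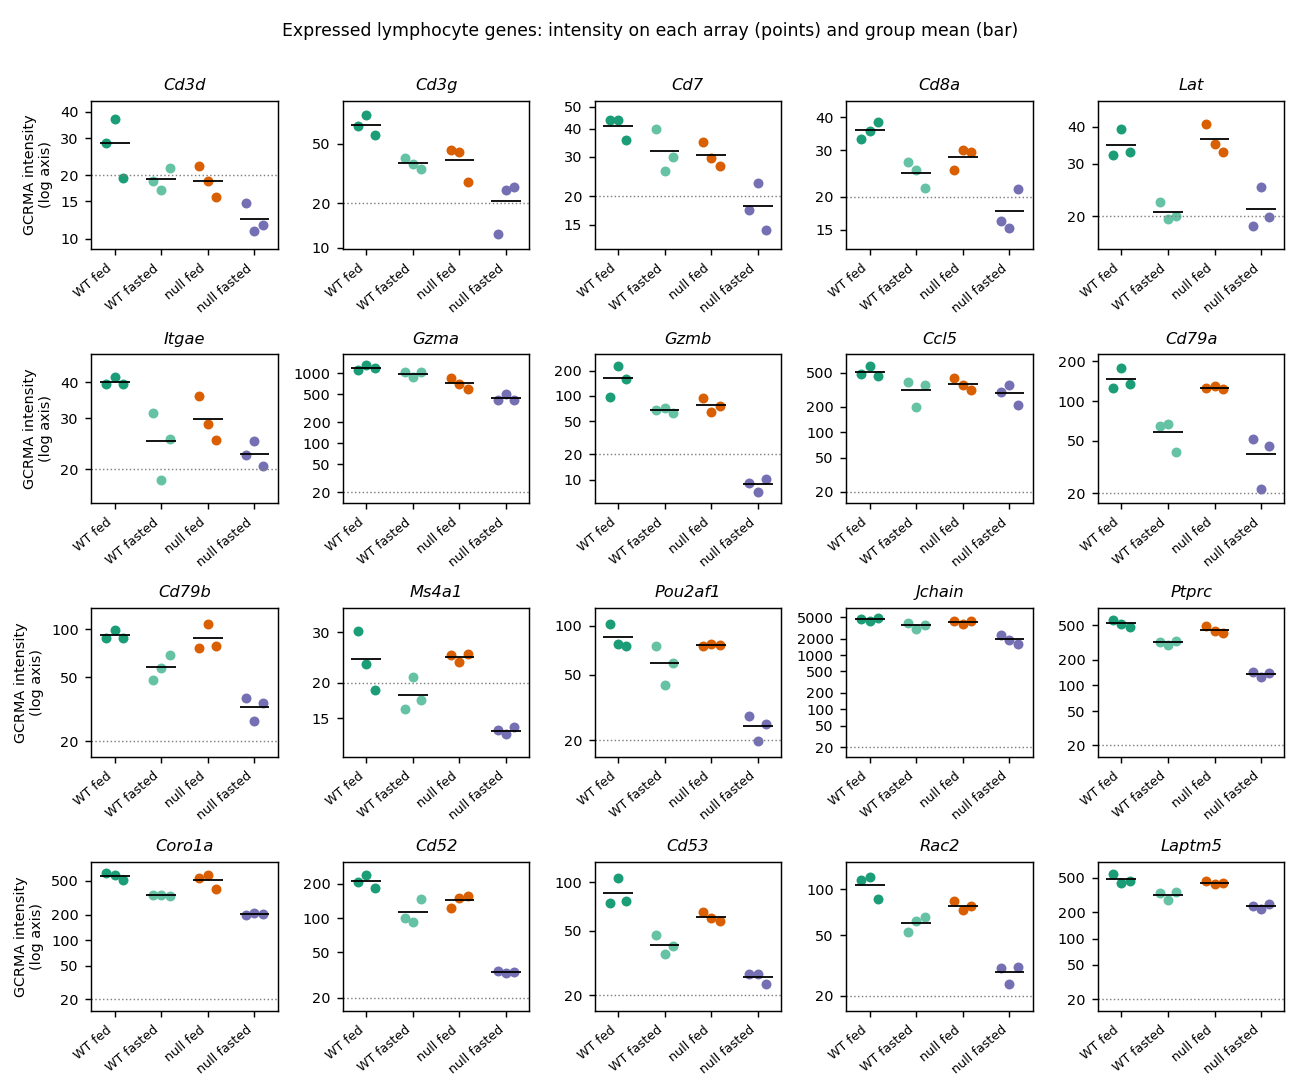
Intensity (log axis, with its own range in each panel) of the 20 expressed lymphocyte genes on each of the 12 arrays, 1 probe set a gene. Points are arrays, bars are group means of 3 arrays and the dotted line is the level of 20. Gzmb, Ms4a1, Pou2af1, Ptprc, Coro1a, Cd52 and Laptm5 are among the genes whose 3 null fasted arrays lie below all others.

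Upon fasting, lymphocyte genes fell in both genotypes, and none of the 20 rose, against 13.3% of all expressed genes in wild-type and 22.5% in null mice. In wild-type mice 8 of the 20 fell, namely Lat, Gzmb, Cd79a, Ptprc, Coro1a, Cd52, Cd53 and Rac2, against 9.45% of all expressed genes. The last 5 of these 8 are pan-leukocyte genes, which do not mark lymphocytes alone. In null mice 14 fell: the same 8 and Cd8a, Cd79b, Ms4a1, Pou2af1, Jchain and Laptm5, against 26.6% of all expressed genes. With 1 probe set a gene the null count was 13, since Cd8a passed by its second probe set alone. A gene is called when a probe set has an unadjusted p under 0.01 in limma and a fold over 1.3, the thresholds of the study. The median change over the 20 genes was −0.43 in wild-type mice, beside 0.02 over all expressed genes, and −0.71 in null mice, beside −0.05. Among the 15 genes over 20 in every group, 7 fell in wild-type mice and 11 in null mice, against 9.06% and 24.9% of all genes over 20 in every group. The wild-type count depended on single arrays: it was 5 without wild-type fed replicate 1 and 2 (Ptprc and Cd53) without wild-type fed replicate 2. Leaving out wild-type fasted replicate 2 or 3 gave 4. As deposited, without removal of the shift, 13 genes fell in wild-type mice.

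Between the genotypes, null mice had the lower values, and in the fasted state by far more genes passed. In fed mice 4 of the 20 genes were lower in null than in wild-type mice (Gzma, Gzmb, Cd52 and Cd53), against 1.77% of all expressed genes, but none of the 4 had an adjusted p under 0.05. In fasted mice 15 were lower in null mice, against 19.5% of all expressed genes, and the 5 that did not pass were Cd3d, Lat, Itgae, Ccl5 and Cd79a. With 1 probe set a gene the count was 14, without Ms4a1. The median difference between null and wild-type mice was −0.38 in fed and −0.78 in fasted mice, beside 0.05 and −0.02 over all expressed genes. Of the 15 genes over 20 in every group, 3 were lower in null mice when fed and 11 when fasted, against 1.81% and 18% of all such genes. The count in fed mice was 1 without wild-type fed replicate 2 or without null fed replicate 2, Gzma being the gene left each time. With 1 probe set a gene, the 3 null fasted arrays lay below the 3 wild-type fasted arrays for 16 of the 20 genes, against 27.2% of all expressed genes.

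**Figure D2:**
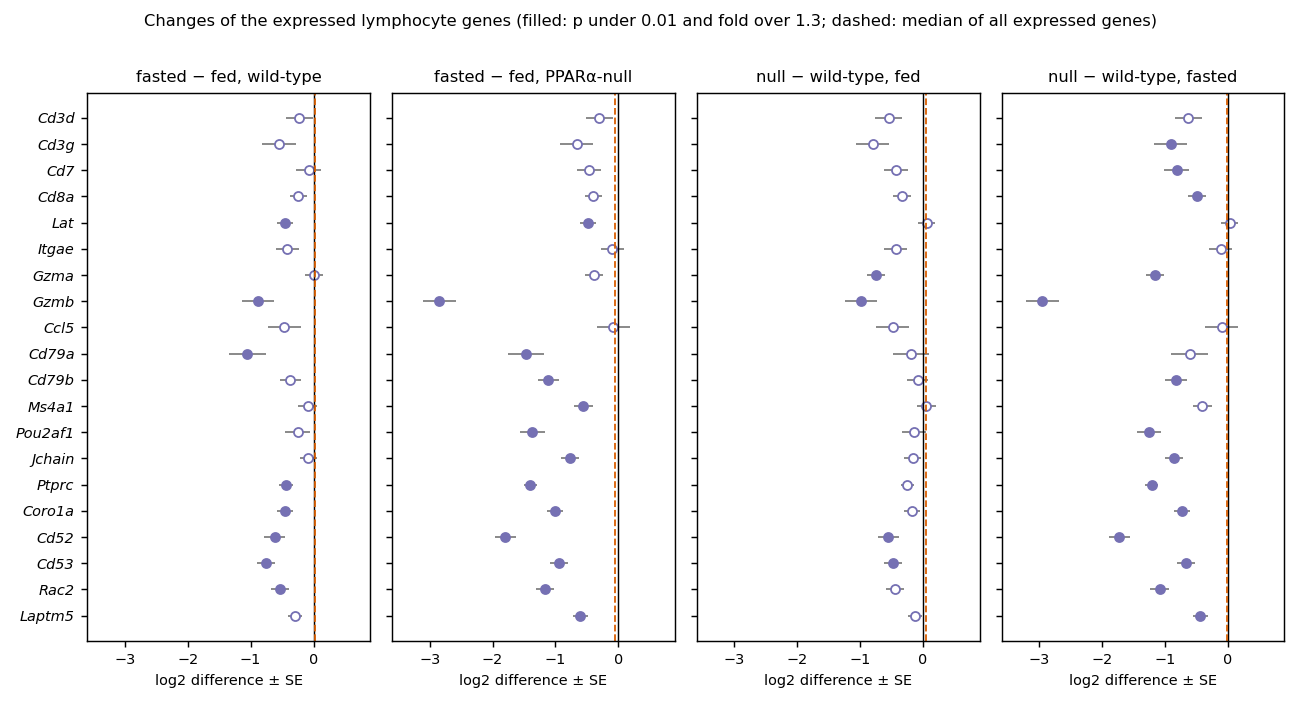
Log2 differences with standard errors of the 20 expressed lymphocyte genes in the fasting contrasts of each genotype (common shift removed) and in the genotype contrasts of each feeding state. Each gene is shown by its most intense probe set, so Cd8a upon fasting in null mice and Ms4a1 between fasted genotypes, which passed by a second probe set, are open. The filled points lie left of 0 in every panel, and most are in the null fasting and fasted genotype panels.

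The pan-leukocyte genes showed the pattern most plainly, with 5 of 6 lower upon fasting in wild-type mice and 6 of 6 in null mice. The shares of all expressed genes that fell were 9.45% and 26.6%. Of the 5 wild-type calls, only that of Cd53 remained in every fit that left out 1 array. Ptprc, which encodes the phosphatase CD45 of all leukocytes, had 584, 521 and 482 in wild-type fed, 325, 293 and 332 in wild-type fasted, 494, 433 and 407 in null fed and 145, 126 and 139 in null fasted mice. As deposited, the null fasted arrays were far below the 9 others, the wild-type fasted arrays were in between, and the fed arrays of the genotypes overlapped. With the common shift removed, as for every gene below, the fall upon fasting was 1.36-fold in wild-type mice (log2 −0.44 ± 0.11 SE, adjusted p = 0.0136) and 2.64-fold in null mice (−1.40 ± 0.11, adjusted p = 1.46e-06). Fasted null mice had 2.32-fold less Ptprc signal than fasted wild-type mice (−1.21 ± 0.11, adjusted p = 1.09e-05), and without wild-type fed replicate 1 the wild-type fall no longer passed.

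Cd52, a small glycoprotein on the surface of mature lymphocytes, had 207, 239 and 185 in wild-type fed, 100.2, 91.7 and 148 in wild-type fasted, 123, 149.6 and 157 in null fed and 34.0, 32.7 and 33.6 in null fasted mice. All 4 groups stood apart here except wild-type fasted and null fed mice, which overlapped. It fell 1.54-fold in wild-type (−0.62 ± 0.17, adjusted p = 0.0226) and 3.47-fold in null mice (−1.79 ± 0.17, adjusted p = 6.24e-06). It was lower in null mice by 1.47-fold when fed (−0.55 ± 0.17, adjusted p = 0.27) and by 3.31-fold when fasted (−1.73 ± 0.17, adjusted p = 2.06e-05). The fed difference did not pass the adjusted threshold and lost its call without wild-type fed replicate 1 or 2 or null fed replicate 1 or 2, and the wild-type fall lost its call without fed replicate 2 or fasted replicate 1 or 2 of that genotype.

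Coro1a, an actin-binding protein of leukocytes, had 611, 581 and 506 in wild-type fed, 337, 338 and 332 in wild-type fasted, 538, 578 and 399 in null fed and 196, 207 and 202 in null fasted mice. The 3 arrays of each fasted group differed little among themselves and the 2 fasted groups did not overlap. It fell 1.37-fold in wild-type (−0.45 ± 0.13, adjusted p = 0.0269) and 2.01-fold in null mice (−1.01 ± 0.13, adjusted p = 5.25e-05), and it was 1.67-fold lower in fasted null than in fasted wild-type mice (−0.74 ± 0.13, adjusted p = 0.000931). The wild-type fall lost its call without fed replicate 1 or 2 or any 1 of the 3 fasted arrays. A second probe set of Coro1a fell 2.68-fold in null mice (−1.42 ± 0.21, adjusted p = 0.000152), and its wild-type change of −0.54 ± 0.21 did not pass (adjusted p = 0.0847).

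Cd53, a tetraspanin of leukocytes, had 74.0, 107 and 77.1 in wild-type fed, 46.9, 36.0 and 40.1 in wild-type fasted, 65.7, 59.8 and 57.6 in null fed and 27.1, 26.9 and 23.3 in null fasted mice. As deposited, before removal of the shift, no 2 groups overlapped. The falls upon fasting were 1.69-fold in wild-type (−0.76 ± 0.15, adjusted p = 0.00483) and 1.93-fold in null mice (−0.95 ± 0.15, adjusted p = 0.000229), and both passed in every fit that left out 1 array. It was lower in null mice by 1.39-fold when fed (−0.48 ± 0.15, adjusted p = 0.28) and by 1.59-fold when fasted (−0.67 ± 0.15, adjusted p = 0.00419). The fed difference lost its call without wild-type fed replicate 2, null fed replicate 2 or 3, or wild-type fasted replicate 3.

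Rac2, a small GTPase of blood cells, had 115, 120.2 and 86.3 in wild-type fed, 52.4, 61.5 and 65.8 in wild-type fasted, 83.9, 72.6 and 77.5 in null fed and 30.5, 23.7 and 30.9 in null fasted mice. Its fasted arrays lay below the fed arrays of the same genotype, and the null fasted arrays were lowest. It fell 1.44-fold in wild-type (−0.53 ± 0.15, adjusted p = 0.0261) and 2.25-fold in null mice (−1.17 ± 0.15, adjusted p = 5.6e-05), and was 2.12-fold lower in fasted null mice (−1.08 ± 0.15, adjusted p = 0.000211). The wild-type fall lost its call without fed replicate 1 or 2 or fasted replicate 1. Laptm5, a lysosomal membrane protein of blood cells, had 561, 434 and 456 in wild-type fed, 331, 279.6 and 348 in wild-type fasted, 456, 421 and 440.4 in null fed and 239, 219 and 247 in null fasted mice. It fell 1.52-fold in null mice (−0.60 ± 0.11, adjusted p = 0.00101) and was 1.35-fold lower in fasted null than fasted wild-type mice (−0.44 ± 0.11, adjusted p = 0.0115). Its probe set is of the kind that can also detect other transcripts, and the genotype difference lost its call without wild-type fasted replicate 1 or 3 or null fasted replicate 2.

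Granzyme B had the largest change of the 20 genes. Gzmb encodes a serine protease of cytotoxic granules and had 96.1, 230.1 and 159.8 in wild-type fed, 67.2, 72.1 and 62.4 in wild-type fasted, 93.7, 63.7 and 76.1 in null fed and 9.06, 7.17 and 10.1 in null fasted mice. The null fasted arrays were far below all others, and below the median of all probe sets on each of those arrays (about 11.1), while the wild-type fed arrays differed more than 2-fold among themselves. It fell 1.84-fold in wild-type (−0.88 ± 0.26, adjusted p = 0.0332) and 7.19-fold in null mice (−2.85 ± 0.26, adjusted p = 5.86e-06). Fasted null mice had 7.72-fold less signal than fasted wild-type mice (−2.95 ± 0.26, adjusted p = 1.22e-05), and fed null mice 1.98-fold less than fed wild-type mice (−0.99 ± 0.26, adjusted p = 0.198). The sizes of the falls into the null fasted group rest on intensities under 20, where background correction weighs most. The wild-type fall lost its call without fed replicate 2 or 3 or any 1 of the fasted arrays, and the fed difference without wild-type fed replicate 2 or 3 or null fed replicate 2.

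Granzyme A followed genotype more than feeding. Gzma, a second granule protease, had 1113, 1312 and 1175 in wild-type fed, 1026, 884 and 1044 in wild-type fasted, 869, 693 and 592 in null fed and 409, 507 and 412 in null fasted mice. Every null array was below every wild-type array as deposited. The genotype difference was 1.69-fold in fed mice (−0.76 ± 0.14, adjusted p = 0.0566) and 2.23-fold in fasted mice (−1.16 ± 0.14, adjusted p = 0.000108), and both passed in every fit that left out 1 array at the unadjusted threshold. Upon fasting Gzma did not pass in either genotype, with changes of 0.01 ± 0.14 in wild-type (adjusted p = 0.956) and −0.39 ± 0.14 in null mice (adjusted p = 0.0376, unadjusted p over 0.01). The other members of this set, Itgae and the chemokine Ccl5, passed in no contrast. Itgae had group means of 40.2, 25.04, 29.96 and 22.7 in wild-type fed, wild-type fasted, null fed and null fasted mice, and Ccl5 had 516, 316, 371 and 289.6.

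Of the T cell receptor genes, 1 of 5 fell in wild-type mice and 2 of 5 in null mice, against 9.45% and 26.6% of all expressed genes, so that these counts lie within about 1 gene of the background. Between the fasted genotypes, 3 of 5 were lower in null mice, against 19.5%. Lat, the adaptor that links the receptor to its signalling enzymes, had 32.2, 39.3 and 33.0 in wild-type fed, 22.3, 19.5 and 20.1 in wild-type fasted, 41, 35.1 and 32.8 in null fed and 18.5, 25.1 and 19.95 in null fasted mice. Feeding state separated its arrays and genotype did not. It fell 1.37-fold in wild-type (−0.45 ± 0.13, adjusted p = 0.0309) and 1.40-fold in null mice (−0.48 ± 0.13, adjusted p = 0.00881), and the genotypes differed by 0.06 ± 0.13 in fed and 0.03 ± 0.13 in fasted mice. In wild-type mice the call ended without fed replicate 2 or fasted replicate 2 or 3, and in null mice without fed replicate 1 or fasted replicate 1 or 3.

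Cd8a, a chain of the CD8 co-receptor, had 33.2, 35.5 and 38.4 in wild-type fed, 27.0, 25.3 and 21.5 in wild-type fasted, 25.3, 30.1 and 29.5 in null fed and 16.3, 15.3 and 21.3 in null fasted mice. Its null fasted arrays were below the wild-type fasted arrays, by 1.40-fold in the mean (−0.49 ± 0.14, adjusted p = 0.0154). That call ended without wild-type fasted replicate 1 or 2 or null fasted replicate 1 or 2. A second probe set with 21.1, 25.3 and 17.8 in wild-type fed and 6.94, 6.4 and 6.05 in null fasted mice fell 1.97-fold in null mice (−0.98 ± 0.14, adjusted p = 0.000166) and was 1.97-fold lower in fasted null than fasted wild-type mice (−0.98 ± 0.14, adjusted p = 0.00034). Its null fasted values were below the median of all probe sets (about 11.1), so the sizes of these folds are uncertain. Cd7, a T cell surface protein abundant on intraepithelial lymphocytes, had 40.1, 25.8 and 30.01 in wild-type fasted and 17.5, 22.9 and 14.2 in null fasted mice, with 43.5, 43.8 and 35.7 in wild-type fed and 34.9, 29.6 and 27.2 in null fed mice. It was 1.76-fold lower in fasted null mice (−0.82 ± 0.19, adjusted p = 0.00643). Cd3g, the γ chain of CD3, had 66.3, 77.8 and 57.5 in wild-type fed, 40.3, 36.9 and 34.0 in wild-type fasted, 45.6, 44.4 and 27.7 in null fed and 12.3, 24.3 and 25.5 in null fasted mice. It was 1.88-fold lower in fasted null mice (−0.91 ± 0.27, adjusted p = 0.0191), a call that ended without wild-type fasted replicate 1 or 2 or null fasted replicate 1. Cd3d, the δ chain, passed in no contrast, with group means of 28.3, 19.1, 18.9 and 12.4 in the order above.

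B cell and plasma cell genes fell in null mice, 5 of 5, against 26.6% of all expressed genes. In wild-type mice 1 of 5 passed, against 9.45%, although all 5 changes were below 0 (median −0.25). In fed mice none passed between the genotypes, against 1.77% of all expressed genes lower in null mice. Cd79a, a signalling chain of the B cell receptor, had 125, 177 and 136 in wild-type fed, 65.3, 67.3 and 40.8 in wild-type fasted, 125, 129.9 and 124 in null fed and 51.4, 21.6 and 45.9 in null fasted mice. Feeding state separated these arrays in both genotypes. It fell 2.08-fold in wild-type (−1.06 ± 0.29, adjusted p = 0.0253) and 2.77-fold in null mice (−1.47 ± 0.29, adjusted p = 0.00134), and the fasted genotypes differed by −0.61 ± 0.29 (adjusted p = 0.128). In wild-type mice the call ended without fed replicate 2 or fasted replicate 3.

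Its partner chain Cd79b had 88.3, 98.7 and 88.1 in wild-type fed, 48.5, 57.6 and 68.5 in wild-type fasted, 76.7, 108 and 78.0 in null fed and 37.1, 26.9 and 34.5 in null fasted mice. Here the null fasted arrays lay below the wild-type fasted arrays. It fell 2.16-fold in null mice (−1.11 ± 0.17, adjusted p = 0.000205) and was 1.77-fold lower in fasted null mice (−0.82 ± 0.17, adjusted p = 0.00277), and its wild-type change of −0.37 ± 0.17 did not pass (adjusted p = 0.139). Pou2af1, the B cell coactivator of octamer-binding factors, had 102, 77.8 and 75.5 in wild-type fed, 75.1, 43.2 and 58.9 in wild-type fasted, 74.8, 77.4 and 76.7 in null fed and 28.1, 19.7 and 25.1 in null fasted mice. The null fed arrays overlapped both wild-type groups, and the null fasted arrays were below all others. It fell 2.58-fold in null mice (−1.37 ± 0.19, adjusted p = 0.000126) and was 2.39-fold lower in fasted null mice (−1.26 ± 0.19, adjusted p = 0.000466), with a wild-type change of −0.25 ± 0.19 (adjusted p = 0.376).

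Ms4a1, which encodes CD20, was weak, with 30.4, 23.3 and 18.8 in wild-type fed, 16.2, 20.9 and 17.5 in wild-type fasted, 25.0, 23.6 and 25.1 in null fed and 13.6, 13.2 and 14.0 in null fasted mice. This probe set fell 1.47-fold in null mice (−0.55 ± 0.15, adjusted p = 0.00858), a call that ended without null fed replicate 1 or 3 or null fasted replicate 2. A second probe set had 19.1, 24.8 and 20.7 in wild-type fed, 11.3, 18.8 and 16.0 in wild-type fasted, 17.6, 22.2 and 17.1 in null fed and 6.06, 5.3 and 7.35 in null fasted mice. The null fasted arrays were again lowest, with a fall of 2.47-fold in null mice (−1.31 ± 0.19, adjusted p = 0.000158) and a difference of 2.44-fold between fasted genotypes (−1.28 ± 0.19, adjusted p = 0.000365). These null fasted values too were below the median of all probe sets, so the sizes of both folds are uncertain.

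Jchain, the chain that joins IgA dimers in plasma cells, had 4575, 4286 and 4860.1 in wild-type fed, 3866, 3072 and 3651 in wild-type fasted, 4299, 3706 and 4230.3 in null fed and 2395, 1911 and 1611 in null fasted mice. The null fasted arrays were below all others. It fell 1.70-fold in null mice (−0.76 ± 0.14, adjusted p = 0.000776) and was 1.80-fold lower in fasted null mice (−0.85 ± 0.14, adjusted p = 0.000722), while its wild-type change of −0.08 ± 0.14 did not pass (adjusted p = 0.715).

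**Figure D3:**
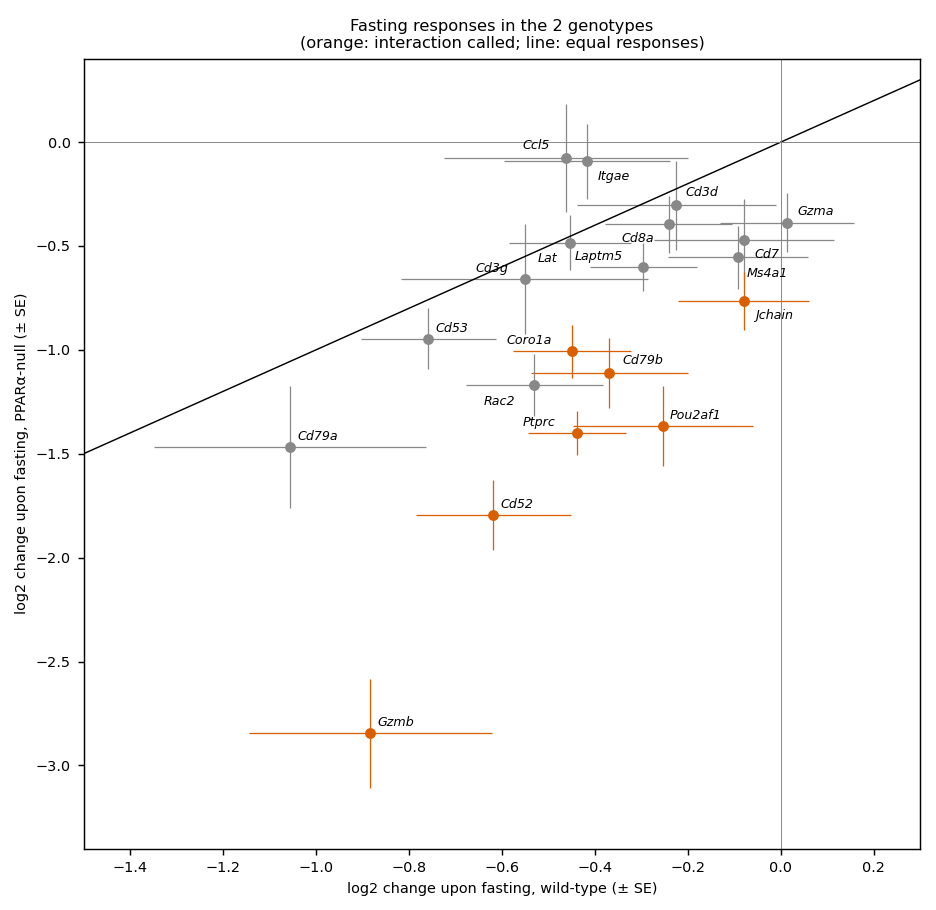
Log2 change upon fasting in wild-type (x) and null mice (y), with standard errors and the common shift removed, for the 20 expressed lymphocyte genes by their most intense probe set; the axes have different scales and the line marks equal changes. Orange genes passed the test of the difference. Gzmb, Cd52, Ptprc and Pou2af1 lie farthest below the line, and Itgae and Ccl5 lie above it.

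Whether the fasting responses of the genotypes differed was tested directly, as the change in wild-type minus the change in null mice, which the shift between array sets does not enter. For 8 of the 20 genes the difference passed, in each case with the larger fall in null mice, against 15.9% of all expressed genes that passed in this direction. The 8 were Gzmb (1.96 ± 0.37, adjusted p = 0.00384), Cd52 (1.18 ± 0.24, adjusted p = 0.0053), Pou2af1 (1.11 ± 0.27, adjusted p = 0.015), Ptprc (0.96 ± 0.15, adjusted p = 0.00127), Cd79b (0.74 ± 0.24, adjusted p = 0.0459), Jchain (0.69 ± 0.20, adjusted p = 0.0307), Coro1a (0.56 ± 0.18, adjusted p = 0.0459) and, by its second probe set, Ms4a1 (1.10 ± 0.27, adjusted p = 0.015). Without that weak probe set, which was over 20 in wild-type fed mice alone, 7 genes passed, since the more intense probe set of Ms4a1 did not (adjusted p = 0.149). The 8 included 4 of the 5 B cell and plasma cell genes (3 without Ms4a1), 3 of the 6 pan-leukocyte genes, Gzmb and none of the 5 T cell receptor genes. The median difference was 0.69 for the B cell set, 0.60 for the pan-leukocyte set and 0.11 for the T cell receptor set, beside 0.06 over all expressed genes. Among the 15 genes over 20 in every group 6 passed, against 15.1% of all such genes. The count fell to 5 without wild-type replicate 2 of the fed or replicate 3 of the fasted group, and the calls of Cd79b, Jchain and Coro1a ended in many of the fits that left out 1 array, whereas those of Gzmb, Cd52 and Ptprc remained in all of them.

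**Figure D4:**
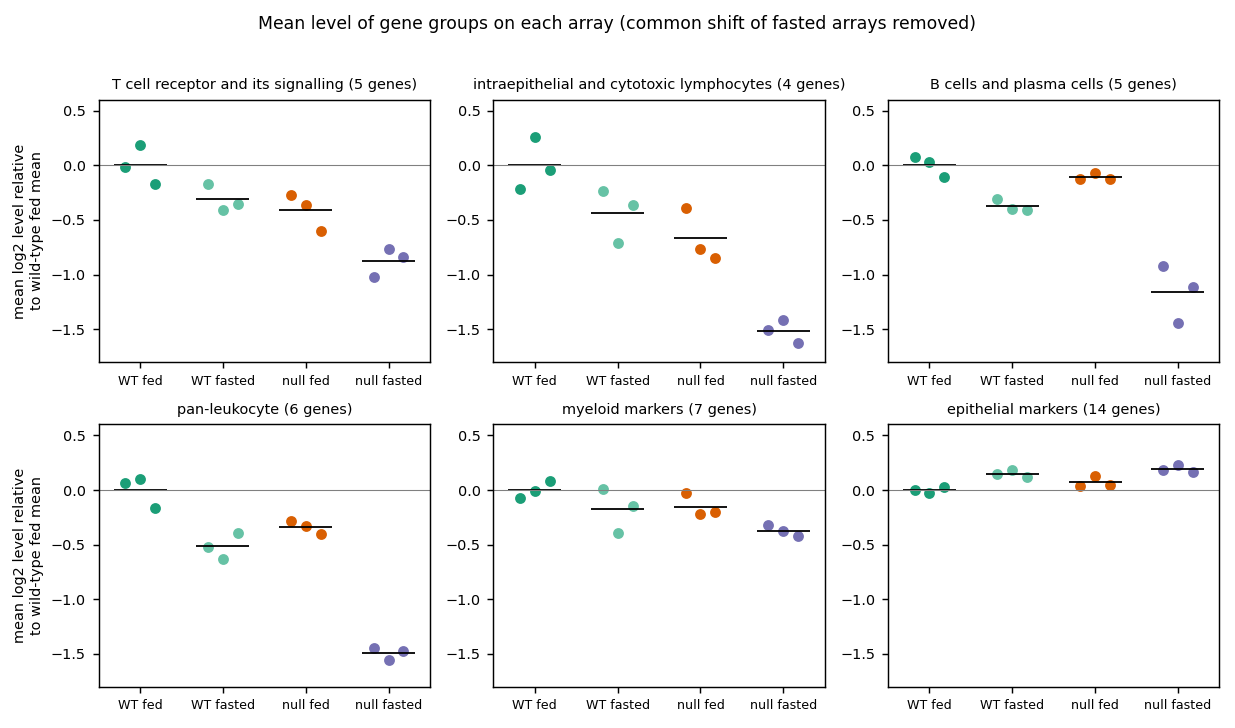
Mean log2 level of gene sets on each array relative to the wild-type fed mean, with the common shift removed from the fasted arrays; points are arrays and bars are means of 3 arrays. The 4 lymphocyte sets are lowest in null fasted mice, the myeloid markers spread less between groups, and the epithelial markers stay within about 0.3 of the wild-type fed mean.

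Other leukocyte genes from lists written beside the 41 were read for the same contrasts. Of 13 further expressed pan-leukocyte genes, 2 fell upon fasting in wild-type mice (Lcp1 and Cytip) and 10 in null mice, with 1 rise (Inpp5d) and 1 gene, Stk17b, whose probe sets passed in opposite directions. The shares of all expressed genes that fell were the 9.45% and 26.6% given above. The shares lower in null mice were 1.77% when fed and 19.5% when fasted, and all of these hold for the lists that follow. Lcp1, the leukocyte plastin, had group means of 508 ± 76.1 in wild-type fed, 203 ± 32.8 in wild-type fasted, 389 ± 27.5 in null fed and 95.4 ± 6.85 in null fasted mice. Irf8, a transcription factor of B cells and myeloid cells, had 334 ± 49.6, 203 ± 47.3, 356 ± 16.04 and 115 ± 25.2 in the same order. In fasted mice 7 of the 13 were lower in null mice, and in fed mice 1 was (Itgb2). The Itgb2 probe set that passed was over 20 in wild-type fed mice alone and could only be tested because of that group. The same holds for Selplg, and both genes are among the 7. Of 9 further B cell and plasma cell genes, 3 fell in wild-type and 6 in null mice, and in fasted mice 3 were lower in null mice (Ighm, Derl3 and Igha) and Sdc1 was higher. Ighm passed there by 1 of its 6 probe sets (107 ± 84.9 in wild-type and 16.8 ± 7.22 in null mice), while 3 others had higher means in null mice (46.9 against 39.0, 54.8 against 43.3 and 34.2 against 24.1). Of 34 further T cell genes 20 were measured and 2, Fyb and Bcl11b, were expressed. Fyb, an adaptor of T cells, fell in wild-type mice (46.5 ± 3.27 to 28.5 ± 0.644) and did not pass in null mice (43.0 ± 3.81 to 27.3 ± 2.58) or between the fasted genotypes. Bcl11b, a T cell transcription factor, was lower in fasted null (23.1 ± 3.46) than in fasted wild-type mice (37.2 ± 5.91, difference −0.69 ± 0.15, adjusted p = 0.00448). Both expressed genes of the cytotoxic and tissue-resident list, Tyrobp and Ahr, fell in null mice and neither passed in wild-type mice.

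Markers of other cell types were read beside these values. Of 7 expressed myeloid markers, 1 fell in each genotype upon fasting (C1qa in wild-type and Lyz2 in null mice). Fcgr3 rose in wild-type mice, and 2 were lower in fasted null mice (Siglecf and Fcgr3). Fcgr3 had means of 19.7 in wild-type fed, 22.8 in wild-type fasted, 17.8 in null fed and 14.6 in null fasted mice. It was thus over 20 in wild-type fasted mice alone and could only be tested because of that group. The summed intensity of the 7 was 1793 to 1857 in wild-type fed, 1136 to 1249 in wild-type fasted, 1604 to 1702 in null fed and 1028 to 1068 in null fasted mice. No epithelial marker of 14 fell in any contrast, while Chga and Krt18 rose upon fasting in both genotypes and Chga was higher in fasted null than in fasted wild-type mice. The sum of the 14 was 67784 to 68692, 58235 to 61648, 67782 to 68677 and 58086 to 60993 in the same order, the fasted sums carrying the shift between array sets. Of 12 smooth muscle and stroma markers, 6 fell and 2 rose (Lyve1 and Pecam1) in wild-type mice, and 3 fell and 3 rose (Lyve1, Pecam1 and Pdgfra) in null mice, with sums of 5974 to 6794, 2582 to 4016, 5458 to 6078 and 3436 to 3645. Pecam1 had means of 13.4, 16.8, 12.2 and 20.9 in the same order. It was over 20 in null fasted mice alone and could only be tested because of that group. Transcripts of the exocrine pancreas rose upon fasting, 10 of 10 in wild-type and 7 of 10 in null mice, with sums of 611 to 2091, 10222 to 20849.7, 699 to 1216 and 608 to 25484. The lowest of the null fasted values belonged to replicate 2. The part of these tissues in the lymphocyte values was not tested.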

How the data were processed

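Total RNA of whole small intestine had been hybridized to Affymetrix mouse GeneChip arrays, 3 in each of 4 groups. The intensity values were deposited by the authors as GCRMA estimates (version 2.20 per the labels) on the linear scale, and the number of arrays limits the precision. Groups came from the sample titles. The free-text descriptions of the wild-type fasted samples name knockout mice, while title, strain and Ppara signal give wild-type.

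A model of group means was fitted to the log2 values of the 12 arrays in R 4.3.3 with lmFit and eBayes of limma 3.58.1. Probe sets with a group mean over 20 in any group were tested, and p-values were adjusted over them by Benjamini-Hochberg. Probe sets with a fold above 1.3 and an unadjusted p below 0.01 passed, and so did a gene with any such probe set. Probe sets with several symbols (691) or none (1606) named no gene. The common shift of −0.30 was the median over expressed probe sets of the mean of both fasting contrasts. The expressed genes that passed in any contrast are given array by array, by their most intense probe set, with a second probe set where its call differs. Members, gene lists, the shift and the contrasts were chosen with earlier results of these data known. The fit was tested on simulated data. Alternatives were other filters, thresholds, variance models, normalizations and probe set choices, the replicate number as a block and leaving out each array.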

Additional observations from a re-analysis of the deposited data

Results flagged for a closer look

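The fasting response differed between the genotypes, by the test of the difference itself (wild-type minus null change, log2), for the 8 genes named in the report. In order of size, the differences were 1.96 for Gzmb (−0.88 in wild-type and −2.85 in null mice), 1.18 for Cd52 (−0.62 and −1.79), 1.11 for Pou2af1 (−0.25 and −1.37), 1.10 for the second probe set of Ms4a1 (−0.21 and −1.31), 0.96 for Ptprc (−0.44 and −1.40), 0.74 for Cd79b (−0.37 and −1.11), 0.69 for Jchain (−0.08 and −0.76) and 0.56 for Coro1a (−0.45 and −1.01). Each had the larger fall in null mice. Genotype and substrain cannot be told apart in any of them.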

How the results depend on the processing

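The log2 changes that passed (53 pairs of a probe set and a contrast) were recomputed under 26 alternatives, which gave 1309 values: 1197 kept direction and call, 112 kept direction and no longer passed, and none changed direction. All alternatives run left 33 pairs past the threshold. Counts of lymphocyte genes that passed moved by over 1.5 times as follows. Without a filter on level the fed genotype contrast had 7. With a level over 100 the null fasting contrast had 8, the fasted genotype contrast 8 and the difference of responses 5. That level left fewer genes to test, and all 32 pairs still tested kept their call. At an adjusted p under 0.05 the fed genotype contrast had 0, against 4 at the unadjusted limma threshold. With each array centred on its median the difference of responses had 5. As deposited, with the shift between array sets kept, the wild-type fasting contrast had 13. Leaving out 1 array gave 2 to 9 genes for wild-type fasting, 13 to 16 for null fasting, 1 to 6 for the fed and 13 to 16 for the fasted genotype contrast, and 5 to 7 for the difference of responses. Leaving out wild-type fed replicate 2 and null fasted replicate 2 together, chosen after seeing the data, gave 3, 1 and 4 for wild-type fasting, the fed genotype contrast and the difference of responses. The cause was not tested. Replicate numbers did not pair the arrays (correlations of deviations from −0.197 to 0.234). With the number as a replicate block the counts were 8, 14, 5, 15 and 7, and 2 pairs no longer passed, Gzmb in wild-type fasting and Cd79b in the difference of responses. Signals under 20 limit what can be said of the T cell genes, Ms4a1 and, in null fasted mice, Gzmb.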

Other observations

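Immunoglobulin heavy chains, which report plasma cells and B cells beyond the 41 genes, behaved unequally. Igha, the heavy chain of IgA, was read by 3 probe sets. The most intense had means of 10487 ± 794 in wild-type fed, 7961 ± 535 in wild-type fasted, 10051 ± 289 in null fed and 5728 ± 840 in null fasted mice. It fell in null mice (−0.52 ± 0.11, adjusted p = 0.00202) and was lower in fasted null than in fasted wild-type mice (−0.48 ± 0.11, adjusted p = 0.00546). Ighm, the heavy chain of IgM, was read by 6 probe sets. All 6 fell upon fasting in null mice and 4 of them in wild-type mice, and 2 were higher in null than in wild-type mice when fed, by 1.14 ± 0.36 (adjusted p = 0.306) and 2.005 ± 0.56 (adjusted p = 0.231), neither passing after adjustment. In the second of these the null fed mean was 331 ± 334, an SD as large as the mean. Immunoglobulin probe sets can detect several related transcripts, so these values are uncertain.

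Of 10 expressed genes of lymphocyte homing and lymphoid stroma, 2 fell (Cxcl12 and Pigr) and 2 rose (Cxcl13 and Ltbr) upon fasting in null mice, against 26.6% and 22.5% of all expressed genes. In wild-type mice Cxcl12 fell and Cxcl13 rose. Cxcl13, the chemokine that draws B cells into follicles, had 49.8 ± 4.71 in wild-type fed, 55.7 ± 7.29 in wild-type fasted, 49.99 ± 2.38 in null fed and 105 ± 16.4 in null fasted mice, with a rise in null mice of 1.36 ± 0.13 (adjusted p = 8.63e-06). Ltbr, the lymphotoxin β receptor, had 369 ± 34.7, 279.6 ± 35.4, 362 ± 6.69 and 489.6 ± 15.8 in the same order and was higher in fasted null than in fasted wild-type mice by 0.82 ± 0.10 (adjusted p = 0.000125). The proliferation genes Mki67, Top2a and Mcm5 fell in null mice (−1.05 ± 0.15, −1.11 ± 0.15 and −1.07 ± 0.17) and were among 6 of 11 cell cycle genes that did so, beside 26.6% of all expressed genes. In wild-type mice 1 of 11 fell, a share of 9.09% beside 9.45% of all expressed genes. Stk17b, a kinase abundant in lymphocytes, had 2 probe sets that passed in opposite directions in fasted null mice, one at 969 ± 95.97 in wild-type and 1313 ± 77.8 in null mice and the other at 412 ± 25.2 and 154 ± 14.7.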
